A study of Arabidopsis thaliana with 8 samples.

Results

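The 10 genes described here control how stomata are made, and were read from the 27634 rows of the deposited tables for rosette leaves of Arabidopsis thaliana. They were taken by locus, and all 10 were present: SPCH (AT5G53210), MUTE (AT3G06120), FAMA (AT3G24140), SCRM2 (AT1G12860), TMM (AT1G80080), EPF1 (AT2G20875), EPF2 (AT1G34245), STOMAGEN (AT4G12970), SDD1 (AT1G04110) and BASL (AT5G60880). RNA was sequenced from 4 wild-type libraries (WT) and 4 libraries of DLK2-OE1, a line named for DLK2, an α/β hydrolase of the strigolactone receptor family, and described no further in the labels. Plants of both genotypes were 24 days old, after 11 days on plates and 13 days on soil. DLK2-OE1 is a single line, and the sources used here do not give what drives DLK2 in it. The labels do not say whether libraries were separate plants or pools, so the p-values below cover spread between libraries that may be technical.

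Stomata arise from a small epidermal lineage. SPCH, a bHLH factor, starts the asymmetric divisions that make meristemoids, MUTE ends those divisions, and FAMA drives the last step from guard mother cell to guard cells, each paired with SCRM2 or its relative ICE1. Secreted peptides tune the lineage: EPF1 and EPF2 inhibit it and STOMAGEN, made in the mesophyll below, promotes it, all through receptor kinases of the ERECTA family and the receptor-like protein TMM, which feed a MAP kinase cascade that lowers SPCH activity. SDD1 is a subtilisin-like protease that limits stomatal number, and BASL marks one side of the dividing cell.

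Library totals lay between 18097159 and 22139801 counts. DLK2 itself was higher in DLK2-OE1, with 60.4, 73.5, 85.1 and 73.4 CPM in WT replicates 1 to 4 against 120, 150, 137 and 145 CPM in DLK2-OE1 replicates 1 to 4 (CPM, counts scaled to library size with edgeR's TMM factors, which share only their name with the gene TMM). The edgeR adjusted p was 0.0178. Of the leaf tissue named in the labels, 6 mesophyll markers were present in every library, at a summed 16400 to 39300 CPM. DLK2-OE1 replicates 1 and 2 stood apart from the other libraries on the first principal component, at 61.5 and 87.4 against 11.2 and -8.16 for replicates 3 and 4 and -47.5 to -27.7 in WT. Results are therefore given by library, and with those libraries left out where that changes them.

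The peptide genes EPF1, EPF2 and STOMAGEN are shown first, because they encode related ligands of opposite action and differed widely in level: EPF1 and EPF2 gave 0 to 27 counts a library and STOMAGEN 80 to 183. Each line gives the last 45 codons before the stop codon, read from the RefSeq TAIR10.1 genome, with cysteine codons in capitals. The stretches lie on the minus strand at chr2:8983182-8983316 (EPF1), on the plus strand at chr1:12473494-12473628 (EPF2) and on the minus strand at chr4:7586247-7586381 (STOMAGEN), each within a single exon.
EPF1: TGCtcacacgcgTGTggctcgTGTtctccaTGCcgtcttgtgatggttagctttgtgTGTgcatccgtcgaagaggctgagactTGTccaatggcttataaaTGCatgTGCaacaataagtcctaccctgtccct
EPF2: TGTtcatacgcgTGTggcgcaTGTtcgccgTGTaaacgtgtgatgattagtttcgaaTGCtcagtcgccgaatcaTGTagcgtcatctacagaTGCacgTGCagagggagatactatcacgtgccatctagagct
STOMAGEN: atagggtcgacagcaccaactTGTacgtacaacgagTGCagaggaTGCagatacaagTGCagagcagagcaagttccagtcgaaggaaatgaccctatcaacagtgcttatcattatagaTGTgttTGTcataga
EPF1 and EPF2 hold 8 cysteine codons in this stretch and STOMAGEN holds 6. The whole coding sequences have 104, 120 and 102 codons.

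In these leaves the 10 genes fell into well-expressed members and members at low levels. On the FPKM scale, which is per transcript length, STOMAGEN had a median of 12.6 over the 8 libraries, SCRM2 9.84 and FAMA 7.48. SCRM2 was above FAMA in 8 of 8 libraries, while STOMAGEN was above SCRM2 in 4 of 4 WT libraries and in 2 of 4 DLK2-OE1 libraries. TMM followed at a median of 0.908 FPKM, below FAMA in 8 of 8 libraries. EPF1 (0.29), SPCH (0.218), EPF2 (0.175), BASL (0.165) and SDD1 (0.149) lay close together, and MUTE had a median of 0. These medians pool genotypes that differed. In WT and DLK2-OE1 the medians were 0.107 and 0.346 for EPF1, 0.0465 and 0.663 for SPCH, and 0 and 0.398 for EPF2. They were 0.047 and 0.478 for BASL and 0.042 and 0.36 for SDD1. In DLK2-OE1 replicate 2, SPCH reached 2.17 FPKM, EPF2 2.29 and BASL 1.88. Among these neighbours the order did not hold across libraries: EPF1 was above SPCH in 4 of 8 libraries and EPF2 above BASL in 3 of 8. The depth allowed only FAMA, SCRM2, TMM and STOMAGEN through edgeR's expression filter, so 4 members were tested and 6 were not. TMM passed this filter mainly through DLK2-OE1, where its counts were larger, so a count over the tested members supports nothing about the 10.

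**Figure D1:**
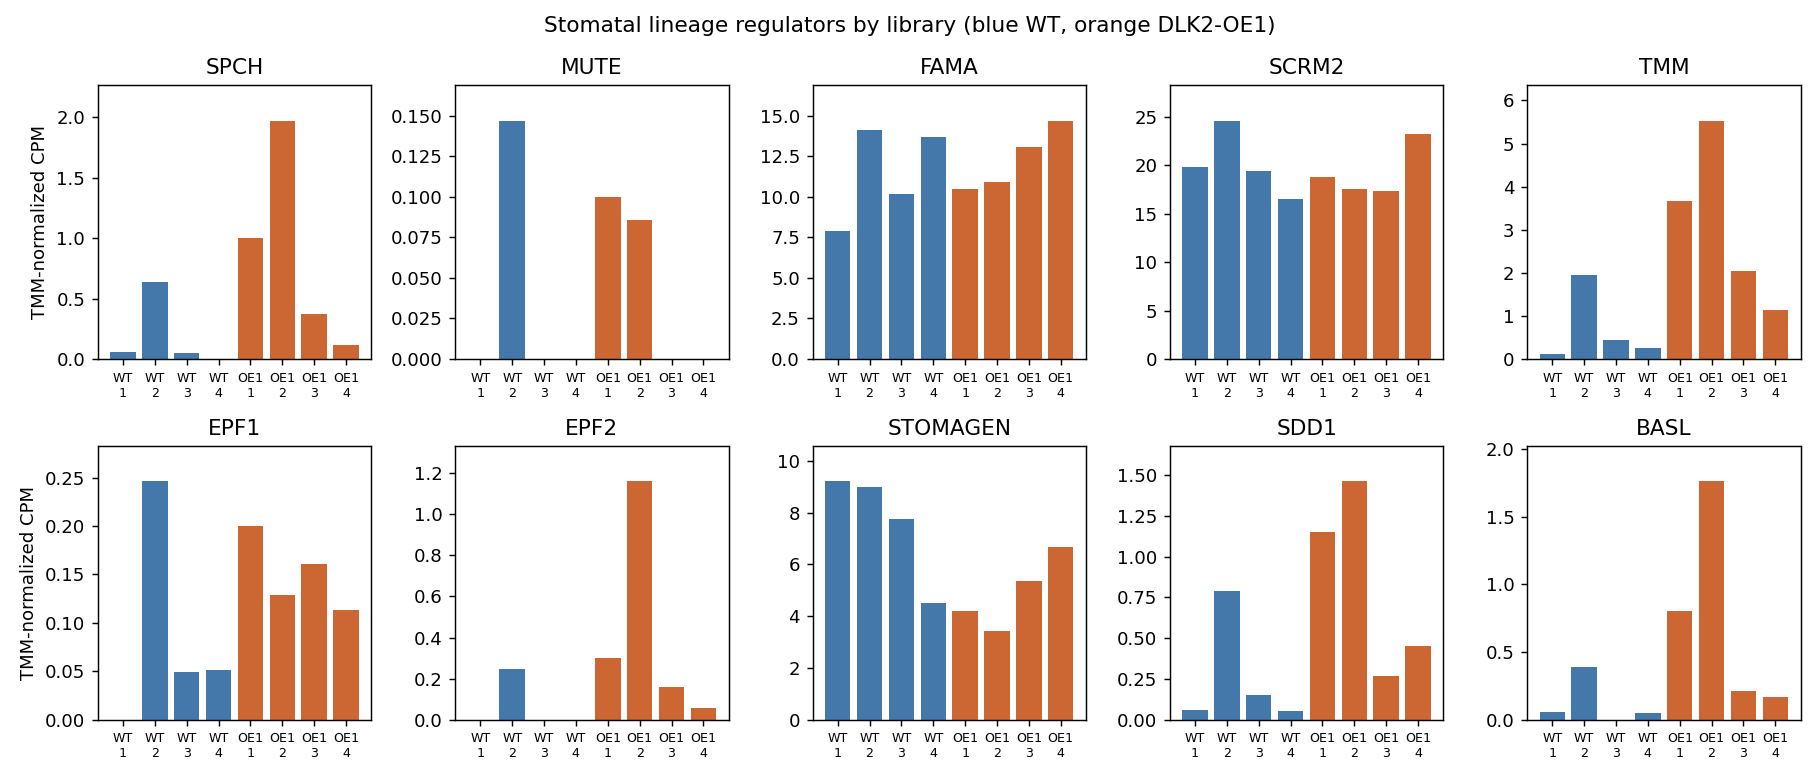
TMM-normalized CPM (vertical axes, a separate linear scale per gene) of the 10 stomatal lineage regulators in each library (bars, blue for WT replicates 1 to 4, orange for DLK2-OE1 replicates 1 to 4). SPCH, TMM, EPF2, BASL and SDD1 are highest in DLK2-OE1 replicate 2 and next in replicate 1, while FAMA and SCRM2 do not follow that order.

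None of the 4 tested members passed the comparison of DLK2-OE1 with WT. By the quasi-likelihood test of edgeR, with Benjamini-Hochberg adjustment over 18155 genes, 0 of 4 were called higher, beside 2.12% of all genes, and 0 of 4 lower, beside 1.58% of all genes. At an unadjusted p under 0.05 from edgeR, 2 of 4 would count, TMM and STOMAGEN, where 4779 of the 18155 genes would. TMM passed the filter mainly through DLK2-OE1, so this count supports nothing about the members. DESeq2, on genes with any count, called TMM alone among 9 members with an adjusted p, beside 8.62% of all genes higher and 5.19% lower. The CPM ranges of WT and DLK2-OE1 overlapped for all 10 members. Of the tested genes, 7.87% had all DLK2-OE1 libraries above WT and 7.29% had all below. These shares cover genes that passed the filter, so only the 4 tested members can be set beside them.

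SPCH, the factor that opens the lineage, gave 1, 13, 1 and 0 counts in WT replicates 1 to 4 and 20, 46, 7 and 2 counts in DLK2-OE1 replicates 1 to 4. Scaled, this was 0.059, 0.639, 0.0497 and 0 CPM in WT against 1, 1.97, 0.375 and 0.113 CPM in DLK2-OE1. The 0 in WT replicate 4 allows up to 0.153 CPM, the level of 3 counts, which covers counting error only. WT replicate 2 held 86.7% of the WT counts of SPCH, and DLK2-OE1 replicates 1 and 2 held 88% of the DLK2-OE1 counts, where these libraries held 27.3% and 50.2% of the counts of all genes. The mean was 0.187 ± 0.302 CPM in WT and 0.866 ± 0.827 CPM in DLK2-OE1 (SD, n = 4 each), a difference smaller than the spread within DLK2-OE1. With no filter on low counts, edgeR gave a log2 change of 2.15 (SE 1.08, adjusted p = 0.251).

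MUTE, which stops meristemoid division, was close to the detection limit. It gave 3 counts in WT replicate 2 and 0 in the other WT libraries, and 2, 2, 0 and 0 counts in DLK2-OE1 replicates 1 to 4. Pooled over libraries, 3 counts in WT have an exact 95% Poisson interval of 0.619 to 8.77, and 4 counts in DLK2-OE1 one of 1.09 to 10.2. No difference was detectable at this depth. Counts of MUTE occurred in the same 3 libraries that held the most SPCH.

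FAMA, which acts at the last division and in young guard cells, was well measured, and its ranges overlapped between genotypes. Its level was 7.9, 14.1, 10.2 and 13.7 CPM in WT replicates 1 to 4 and 10.5, 10.9, 13.1 and 14.7 CPM in DLK2-OE1 replicates 1 to 4. Its lowest and next highest libraries were both WT, and DLK2-OE1 replicates 1 and 2 were the lowest of their genotype. The log2 fold change, DLK2-OE1 over WT, was 0.10 (SE 0.20, edgeR adjusted p = 0.791).

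SCRM2, the shared bHLH partner, had 19.8, 24.6, 19.4 and 16.5 CPM in WT and 18.8, 17.5, 17.3 and 23.2 CPM in DLK2-OE1. The highest library was WT replicate 2 and the lowest WT replicate 4, so WT spanned the whole DLK2-OE1 range, and the sign below turned on the FPKM scale and without WT replicate 2. The log2 fold change was -0.07 (SE 0.14, edgeR adjusted p = 0.8). Its paralog ICE1, also called SCRM, had 23.1 ± 2.6 CPM in WT and 25.5 ± 3.22 CPM in DLK2-OE1 (SD, n = 4 each, log2 fold change 0.14, SE 0.12, edgeR adjusted p = 0.479).

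TMM, the receptor-like protein of the lineage, was the member whose call depended on the tool. It gave 2, 40, 9 and 5 counts in WT replicates 1 to 4 and 73, 129, 38 and 20 counts in DLK2-OE1 replicates 1 to 4. This came to 0.118, 1.96, 0.447 and 0.255 CPM against 3.66, 5.53, 2.04 and 1.13 CPM. All DLK2-OE1 libraries were above WT replicates 1, 3 and 4, and WT replicate 2 lay between DLK2-OE1 replicates 3 and 4. The mean was 0.696 ± 0.856 CPM in WT and 3.09 ± 1.94 CPM in DLK2-OE1 (SD, n = 4 each), a 4.44-fold difference, with a log2 change of 2.13 (SE 0.77, edgeR adjusted p = 0.128). DESeq2 gave the same log2 change of 2.13 with an adjusted p of 0.0493, and over all settings tried the adjusted p ran from 0.0493 to 0.6.

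Which libraries were included moved the TMM value by more than 1.5 times. Without WT replicate 2 the log2 fold change was 3.44 (edgeR adjusted p = 0.0701). Without DLK2-OE1 replicates 1 and 2 together it was 1.16 (edgeR adjusted p = 0.6), and with all 3 libraries left out 2.49 (edgeR adjusted p = 0.14). TMM is annotated as 1 exon at chr1:30127819-30129649, minus strand (TAIR10.1), and AT1G80070 is annotated 7 bases away on the opposite strand. That neighbour had 165, 192, 214 and 218 CPM in WT replicates 1 to 4 and 238, 255, 200 and 181 CPM in DLK2-OE1 replicates 1 to 4. Its log2 change was 0.15 (SE 0.14). Both genes were lowest in WT replicate 1, highest in DLK2-OE1 replicate 2 and next in DLK2-OE1 replicate 1. Their order differed in the other libraries. The sources used here do not give the strand setting of the counting, and the neighbour's part in the TMM counts was not tested.

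EPF2, the peptide that limits entry into the lineage, gave 0, 5, 0 and 0 counts in WT replicates 1 to 4 and 6, 27, 3 and 1 counts in DLK2-OE1 replicates 1 to 4. All WT counts came from replicate 2, and 89.2% of the DLK2-OE1 counts came from replicates 1 and 2. The mean was 0.0614 ± 0.123 CPM in WT and 0.419 ± 0.503 CPM in DLK2-OE1 (SD, n = 4 each), and edgeR with no filter gave a log2 change of 2.62 (SE 1.22, adjusted p = 0.219).

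EPF1, which acts later, on the spacing of stomata, gave 0, 5, 1 and 1 counts in WT and 4, 3, 3 and 2 counts in DLK2-OE1. Its highest level was in WT replicate 2 at 0.246 CPM, and the DLK2-OE1 libraries lay between 0.113 and 0.2 CPM. Unlike EPF2, EPF1 was therefore not highest in DLK2-OE1 replicate 2, but at 7 and 12 counts per genotype the Poisson intervals of 2.81 to 14.4 and 6.2 to 21 overlap. With no filter, edgeR gave a log2 change of 0.71 (SE 0.83, adjusted p = 0.617).

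STOMAGEN, the promoting peptide, had a lower mean in DLK2-OE1. It stood at 9.2, 8.99, 7.75 and 4.49 CPM in WT replicates 1 to 4 and 4.21, 3.43, 5.36 and 6.66 CPM in DLK2-OE1 replicates 1 to 4. WT replicates 1 to 3 were above every DLK2-OE1 library, and WT replicate 4 lay among them. The mean was 7.61 ± 2.17 CPM in WT and 4.91 ± 1.41 CPM in DLK2-OE1 (SD, n = 4 each), with a log2 change of -0.63 (SE 0.27, edgeR adjusted p = 0.178). The value was -0.83 without WT replicate 4 (edgeR adjusted p = 0.0839), -0.33 without DLK2-OE1 replicates 1 and 2 together (edgeR adjusted p = 0.649) and -0.23 without these and WT replicate 2 (edgeR adjusted p = 0.793).

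Mesophyll markers, from the tissue in which STOMAGEN is made, had lower levels in the same libraries. Summed over 6 photosynthesis genes they stood at 39200, 39300, 33700 and 27100 CPM in WT replicates 1 to 4 and 25700, 16400, 27300 and 35800 CPM in DLK2-OE1 replicates 1 to 4. For STOMAGEN and for this sum alike, the lowest libraries were DLK2-OE1 replicate 2, then DLK2-OE1 replicate 1, then WT replicate 4. The sum of 11 mature guard cell genes, given below, had the same lowest libraries in that order, at 108, 131 and 159 CPM. The match is therefore not particular to mesophyll genes. Of the 6 genes 0 passed and 6 had negative log2 fold changes, from -0.63 to -0.31, with CA1, a carbonic anhydrase gene, at -0.63 (SE 0.29, edgeR adjusted p = 0.2). Among all 18155 genes tested, 8981 had negative values. The part of the mesophyll genes in the STOMAGEN value was not tested. In bulk leaf RNA, fewer cells of a type and less RNA per cell cannot be told apart.

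SDD1, the protease gene, gave 1, 16, 3 and 1 counts in WT and 23, 34, 5 and 8 counts in DLK2-OE1. WT replicate 2, at 0.786 CPM, was above DLK2-OE1 replicates 3 and 4, at 0.268 and 0.451 CPM. The mean was 0.261 ± 0.353 CPM in WT and 0.833 ± 0.565 CPM in DLK2-OE1 (SD, n = 4 each). With no filter, edgeR gave a log2 change of 1.62 (SE 0.85, adjusted p = 0.269).

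BASL, the polarity gene, gave 1, 8, 0 and 1 counts in WT and 16, 41, 4 and 3 counts in DLK2-OE1. Replicates 1 and 2 held 89.1% of the DLK2-OE1 counts and WT replicate 2 held 80% of the WT counts. The mean was 0.126 ± 0.18 CPM in WT and 0.736 ± 0.74 CPM in DLK2-OE1 (SD, n = 4 each), so the spread within DLK2-OE1 exceeded the difference. With no filter, edgeR gave a log2 change of 2.47 (SE 1.02, adjusted p = 0.174).

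The order of libraries was shared by SPCH, TMM, EPF2, BASL and SDD1, which were grouped after their values were seen. In each of these 5 genes DLK2-OE1 replicate 2 was highest, DLK2-OE1 replicate 1 next, and WT replicate 2 the highest of the WT libraries. The first principal component of all tested genes, with 60.3% of the variance, had the same order at these places. It stood at 87.4 and 61.5 for those DLK2-OE1 libraries, and at -27.7 and -29.6 for WT replicates 2 and 4. The order is therefore not particular to these 5 genes, and the share of all genes that follow it was not counted. The summed level of the 5 genes was 0.295, 4.03, 0.646 and 0.357 CPM in WT replicates 1 to 4. In DLK2-OE1 replicates 1 to 4 it was 6.91, 11.9, 3.06 and 1.92 CPM. WT replicate 2 was thus above DLK2-OE1 replicates 3 and 4, and the other WT libraries were below all of DLK2-OE1.

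The 250 bases before the annotated start of the gene are shown for EPF2, BASL, TMM and SPCH, 4 of the genes that shared an order of libraries. They were searched for the E-box CANNTG, a class of sites that bHLH factors such as SPCH bind, which reads the same way on both strands and is in capitals. The windows overlap no other annotated gene (RefSeq TAIR10.1) and lie at chr1:12472618-12472867 (EPF2, plus strand), chr5:24489837-24490086 (BASL, minus strand), chr1:30129650-30129899 (TMM, minus strand) and chr5:21589256-21589505 (SPCH, minus strand).
EPF2: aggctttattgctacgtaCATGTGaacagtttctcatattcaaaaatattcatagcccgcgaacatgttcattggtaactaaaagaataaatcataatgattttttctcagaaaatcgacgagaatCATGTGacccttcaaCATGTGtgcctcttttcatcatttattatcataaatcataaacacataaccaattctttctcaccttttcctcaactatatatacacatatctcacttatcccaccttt
BASL: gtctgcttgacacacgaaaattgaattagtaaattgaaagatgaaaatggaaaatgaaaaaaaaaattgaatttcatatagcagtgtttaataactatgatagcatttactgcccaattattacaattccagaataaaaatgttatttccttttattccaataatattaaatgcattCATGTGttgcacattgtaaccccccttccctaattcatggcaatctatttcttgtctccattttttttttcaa
TMM: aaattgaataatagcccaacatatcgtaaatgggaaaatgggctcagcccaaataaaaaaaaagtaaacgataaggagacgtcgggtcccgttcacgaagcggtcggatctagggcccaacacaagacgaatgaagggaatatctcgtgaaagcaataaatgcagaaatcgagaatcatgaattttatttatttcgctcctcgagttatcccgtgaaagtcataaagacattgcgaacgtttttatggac
SPCH: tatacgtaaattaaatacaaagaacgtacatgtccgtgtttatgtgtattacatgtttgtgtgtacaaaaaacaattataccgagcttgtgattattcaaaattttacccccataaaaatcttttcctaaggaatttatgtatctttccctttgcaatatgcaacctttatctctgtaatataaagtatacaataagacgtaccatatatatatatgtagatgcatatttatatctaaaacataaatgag
EPF2 holds 3 E-boxes, BASL 1, and TMM and SPCH 0 in these windows. Of the 10 members 6 hold at least 1, beside 55.3% of the windows of 27444 protein-coding genes. The G-box CACGTG, which is also an E-box, is in 0 of the 10 and in 6.49% of all windows. A match is a description of the letters only.

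Markers of dividing cells and of the shoot apex differed between the same libraries. The summed level of 10 mitotic genes was 15.6, 28, 20.5 and 26.8 CPM in WT replicates 1 to 4 and 108, 145, 43.6 and 33.8 CPM in DLK2-OE1 replicates 1 to 4. Of these 10 genes, 4 passed as higher (CYCB2;2, AUR2, CDKB1;1 and CDKB2;2), with edgeR adjusted p from 0.0209 to 0.0466, and 6 did not pass. Of all genes tested, 2.12% passed as higher. With a library left out, 0 passed for WT replicate 1, 2 or 3 or DLK2-OE1 replicate 1, and 1 passed for WT replicate 4 or DLK2-OE1 replicate 2. Omitting DLK2-OE1 replicate 3 gave 6, and omitting replicate 4 gave 10. The summed level of 6 shoot apex genes was 0.059, 1.33, 0 and 0.153 CPM in WT replicates 1 to 4 and 31.7, 51.2, 6.27 and 8.18 CPM in DLK2-OE1 replicates 1 to 4. It came mainly from STM and KNAT1, homeobox genes of the shoot meristem, both passing as higher (edgeR adjusted p = 0.0318 and 0.0229), and in WT their 11 and 10 counts were all in replicate 2. Neither passed once WT replicate 1, 2 or 3 or DLK2-OE1 replicate 1 was omitted, and 1 passed on omitting WT replicate 4 or DLK2-OE1 replicate 2. Of the others, CUC1, CUC2 and WUS had few counts and CLV3, the stem cell peptide gene, had 0 counts in all libraries. Among the WT libraries replicate 2 was highest in the lineage, shoot apex and mitotic sums, the last at 28 CPM beside 26.8 CPM in replicate 4. Without DLK2-OE1 replicates 1 and 2 together, 0 genes of either list passed. Their part in the lineage values was not tested.

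**Figure D2:**
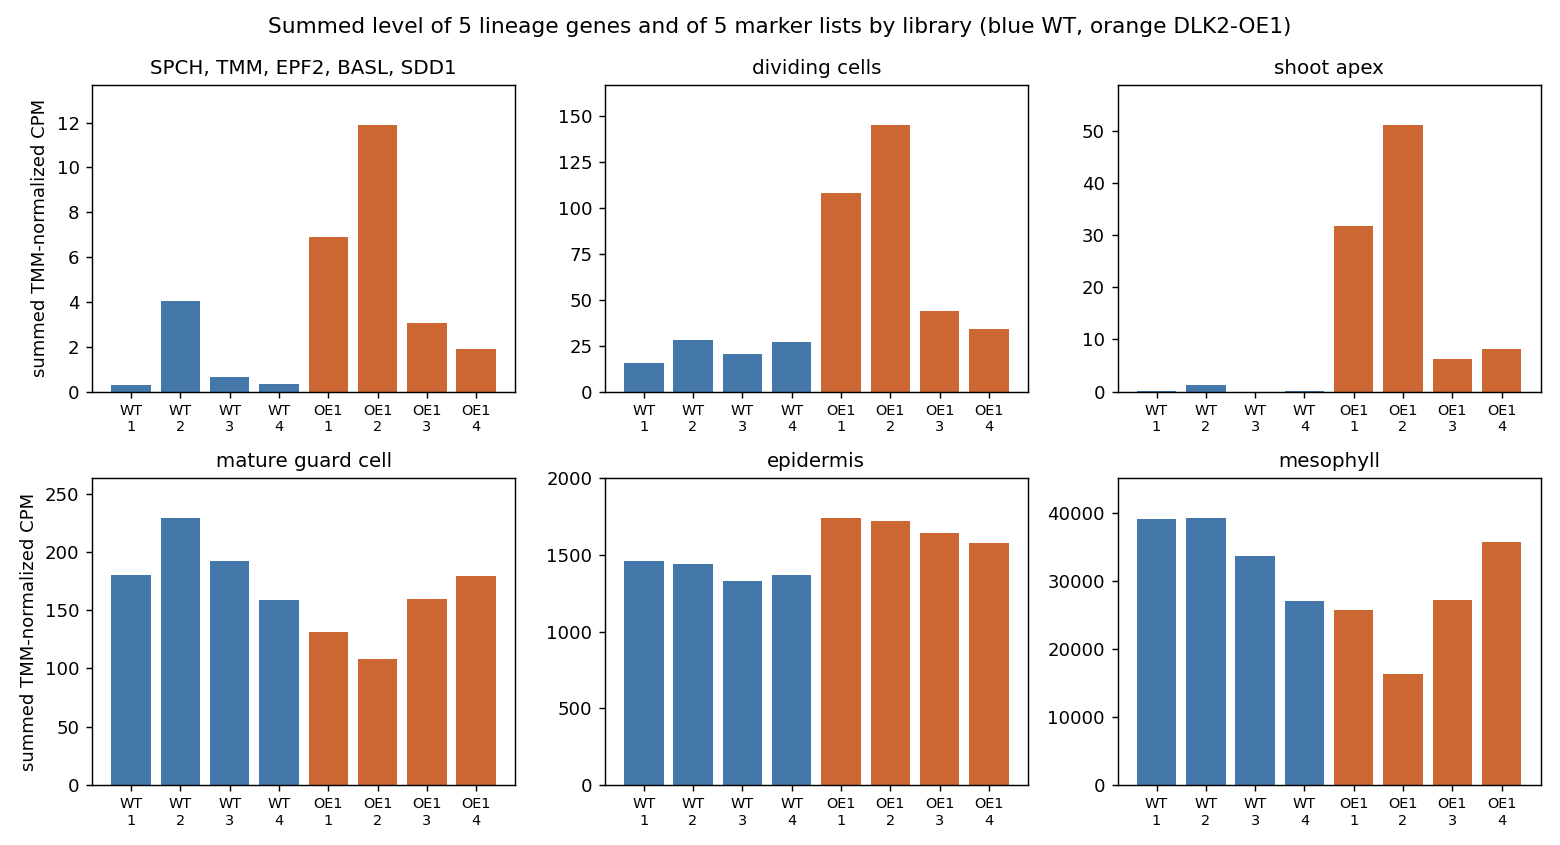
Summed TMM-normalized CPM per library (vertical axes, a separate linear scale per panel; bars blue for WT, orange for DLK2-OE1) of SPCH, TMM, EPF2, BASL and SDD1 and of 5 marker lists. The lineage genes reach 11.9 CPM in DLK2-OE1 replicate 2 and 4.03 CPM in WT replicate 2. Mesophyll markers stand at 39200 and 39300 CPM in WT replicates 1 and 2.

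Epidermal genes, from the tissue layer of the lineage, summed over 9 genes to 1330 to 1460 CPM in WT and to 1580 to 1740 CPM in DLK2-OE1. LTP1, a lipid transfer protein gene, and PDF1 carried most of this difference, LTP1 with 331 ± 60.7 and 449 ± 57.8 CPM (SD over 4 libraries) and overlapping ranges (edgeR adjusted p = 0.129). FDH, a cuticle gene, had ranges without overlap, at 208 ± 13.9 and 259 ± 23.9 CPM (edgeR adjusted p = 0.114). Of the 9, 0 passed, and ATML1 and PDF2, factors that specify epidermis, had log2 fold changes of 0.03 (SE 0.10) and -0.14 (SE 0.09, edgeR adjusted p = 0.873 and 0.348). PDF1, an epidermal protein gene, followed the order of the lineage genes, with 0, 785, 36 and 1 counts in WT replicates 1 to 4 and 2450, 4653, 792 and 96 counts in DLK2-OE1 replicates 1 to 4 (log2 fold change 3.18, SE 1.49, edgeR adjusted p = 0.209). GL2, a trichome factor, had 1.46 ± 0.978 CPM in WT and 6.39 ± 5.86 CPM in DLK2-OE1 (edgeR adjusted p = 0.127, SD with n = 4 each).

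Mature guard cell genes did not pass either. Of 11 tested, 0 passed, 9 had negative and 2 positive log2 fold changes, and the median was -0.24. Among all 18155 genes tested, 8981 had negative values. Summed, they stood at 180, 229, 192 and 159 CPM in WT replicates 1 to 4 and 131, 108, 160 and 179 CPM in DLK2-OE1 replicates 1 to 4. KAT1 alone made up 82.9 to 132 CPM of the WT sums and 40.1 to 100 CPM of those in DLK2-OE1. KAT1, the inward potassium channel, had 108 ± 20 CPM in WT and 68 ± 25.3 CPM in DLK2-OE1 (SD, n = 4 each, log2 fold change -0.66, SE 0.26, edgeR adjusted p = 0.147). GORK, the outward potassium channel, was on the other side at 4.24 ± 1.09 and 9.09 ± 4.83 CPM (log2 fold change 1.10, SE 0.38, edgeR adjusted p = 0.116), and ALMT12, an anion channel, had a log2 change of -0.51 (SE 0.17, edgeR adjusted p = 0.109). DESeq2 called 1 of the 11, GORK, higher (adjusted p = 0.0441), beside 8.62% of all genes.

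The receptor kinases and the MAP kinase cascade downstream of the peptides were all measured, and 0 of 11 passed, with log2 fold changes from -0.36 to 1.79 and a median of -0.07, beside 0.004 for all genes. ERECTA had 40.3 ± 9.15 CPM in WT and 56.7 ± 17.9 CPM in DLK2-OE1 (edgeR adjusted p = 0.215, SD with n = 4 each). ERL1, its close relative, had 6, 21, 3 and 5 counts in WT replicates 1 to 4 and 44, 62, 15 and 10 counts in DLK2-OE1 replicates 1 to 4, highest, as TMM was, in DLK2-OE1 replicates 2 and 1 (log2 fold change 1.79, SE 0.67, edgeR adjusted p = 0.139), whereas ERL2 had a log2 change of -0.07 (SE 0.29). The co-receptor genes SERK1 and SERK2 had non-overlapping ranges in opposite directions, at log2 fold changes of 1.68 (SE 0.43, edgeR adjusted p = 0.0598) and -0.35 (SE 0.09, edgeR adjusted p = 0.0545). DESeq2 called both (adjusted p = 0.00368 and 0.00906), beside 8.62% of all genes higher and 5.19% lower. MKK5, at -0.36 (SE 0.14, edgeR adjusted p = 0.138), also had no overlap, making 1 higher and 2 lower of 11, beside 7.87% and 7.29% of all tested genes. YDA, MKK4, MKK5, MPK3 and MPK6, the kinases of the cascade, lay between -0.36 and 0.04.

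Among 12 further lineage partners and polarity genes, 11 were tested, 1 rose and 10 did not pass. Of all genes tested with edgeR, 2.12% were called higher and 1.58% lower. FLP, a MYB factor that limits the division of the guard mother cell, rose, with 8.17 ± 1.45 CPM for WT and 15.8 ± 3.81 CPM for DLK2-OE1 (SD, n = 4 each), by a log2 change of 0.95 (SE 0.19, edgeR adjusted p = 0.0411). Its counts were 143, 140, 146 and 198 in WT replicates 1 to 4, against 343, 476, 259 and 208 for DLK2-OE1 replicates 1 to 4. The call was lost with limma-voom (adjusted p = 0.057), and 0 of the 11 genes passed on omitting WT replicate 1, 2 or 3, DLK2-OE1 replicate 1 or 2, or that DLK2-OE1 pair together. Omitting DLK2-OE1 replicate 3 left 2 passing, and omitting replicate 4 left 3. Its paralog MYB88 had 6.97 ± 1.77 and 10.3 ± 1.53 CPM (log2 fold change 0.56, SE 0.19, edgeR adjusted p = 0.113).

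POLAR, which marks the same cell pole as BASL, had 0, 16, 4 and 3 counts in WT replicates 1 to 4 and 41, 86, 12 and 14 counts in DLK2-OE1 replicates 1 to 4. Its log2 change of 2.61 (SE 0.85, edgeR adjusted p = 0.101) was the largest of the 11 tested genes, and WT replicate 2 was again the highest WT library. Of the 11, 10 had positive log2 fold changes and 1 a negative one, ARR16, at -1.39 (SE 0.51, edgeR adjusted p = 0.129). Among all 18155 genes tested, 9174 had positive values. TCX2 and SOL1, CXC domain factors that act in the lineage, had log2 fold changes of 1.32 (SE 0.40, edgeR adjusted p = 0.0864) and 1.08 (SE 0.31, edgeR adjusted p = 0.0724). DESeq2 called FLP, POLAR, TCX2 and SOL1 higher, beside 8.62% of all genes. CYCD7;1, a cyclin of the guard mother cell, had 0 counts in WT and 7 in DLK2-OE1 and was not tested.

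**Figure D3:**
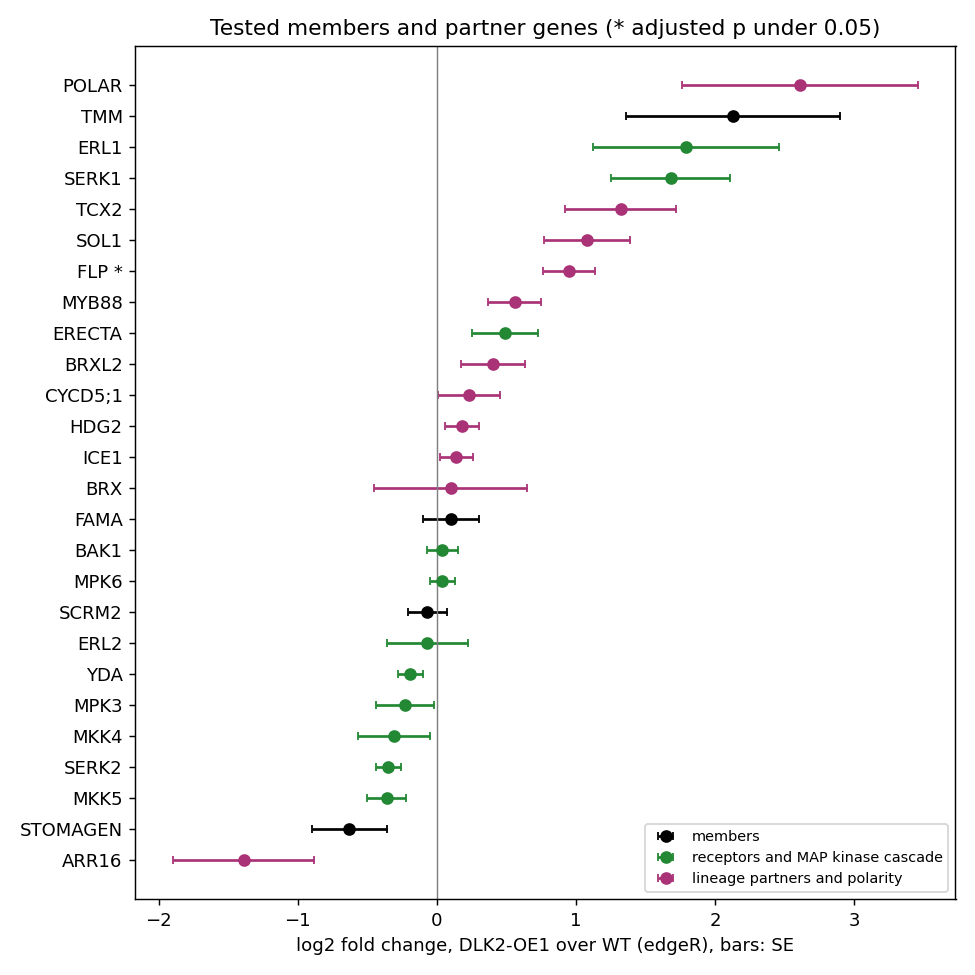
Log2 fold change of DLK2-OE1 over WT from edgeR (horizontal axis, points, with bars for the SE) for the 4 tested members (black), 11 receptor and MAP kinase genes (green) and 11 lineage partners and polarity genes (purple). FLP, at 0.95, is marked as the single gene with an adjusted p under 0.05, and TMM, at 2.13, has a wider bar, 0.77.

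Of 9 further genes for EPF-like peptides and peptide processing, 2 were tested and 0 passed. CHAL (AT2G30370), an EPF-like peptide gene named here after its values were seen, had 0 counts in all WT libraries and 19, 24, 10 and 1 counts in DLK2-OE1 replicates 1 to 4. With counts pooled by genotype and a floor of 3 counts over the WT group, this came to 17.4-fold. That value allows only for counting error in the WT 0. It takes the 54 DLK2-OE1 counts as they stand and leaves out the spread between libraries. Replicates 1 and 2 held 79.6% of the DLK2-OE1 counts, and the 1 count in replicate 4 was below that floor. EdgeR with no filter gave it an adjusted p of 0.0547, and DESeq2 0.00109. EPFL4 and AT4G37810, also an EPF-like gene, gave 15, 21, 4 and 0 counts and 19, 26, 7 and 1 counts in DLK2-OE1 replicates 1 to 4, against 1 and 2 counts in WT as a whole. AT1G80133 and the protease gene AT1G20150 had 0 counts in every library.

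Ratios of members within a library, computed on counts plus 0.5, were compared for 4 pairs. The test was an exact two-sided permutation over 70 assignments, whose smallest p is 0.0286. Library scaling cancels in such a ratio except where counts are so low that the 0.5 added matters. The FAMA to SPCH log2 ratio was 6.77 ± 1.92 in WT and 4.39 ± 1.88 in DLK2-OE1 (SD, n = 4 each, exact permutation p = 0.171, adjusted p = 0.2 over the 4 pairs). SPCH had 0 counts in WT replicate 4, where this ratio was highest, at 9.07, and rests on the 0.5 added. Without that library the difference between genotypes was -1.61. The STOMAGEN to EPF2 log2 ratio was 8.29, 5.06, 8.29 and 7.47 in WT replicates 1 to 4, against 3.7, 1.55, 4.84 and 6.3 for DLK2-OE1 replicates 1 to 4. The ranges overlapped through WT replicate 2 and DLK2-OE1 replicate 4 (exact permutation p = 0.0571, adjusted p = 0.114). EPF2 had 0 counts in WT replicates 1, 3 and 4, so the ratios there are set by the 0.5 added. Without DLK2-OE1 replicates 1 and 2 together the difference between genotypes in the STOMAGEN to EPF2 ratio went from -3.18 to -1.70, and that in the FAMA to SPCH ratio from -2.38 to -0.90.

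The EPF1 to EPF2 log2 ratio was 0.79 ± 0.92 in WT and -0.69 ± 1.61 in DLK2-OE1 (SD, n = 4 each, exact permutation p = 0.2, adjusted p = 0.2). It also rests on the 0.5 added where EPF2 had 0 counts, and its difference went from -1.48 to -0.42 without DLK2-OE1 replicates 1 and 2 together. The MUTE to SPCH log2 ratio did not overlap between genotypes, from -1.95 to 0 in WT and from -4.22 to -2.32 in DLK2-OE1 (exact permutation p = 0.0286, adjusted p = 0.114). With 0 to 3 counts of MUTE per library, this ratio is set largely by SPCH and by the 0.5 added. None of the 4 pairs passed.

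**Figure D4:**
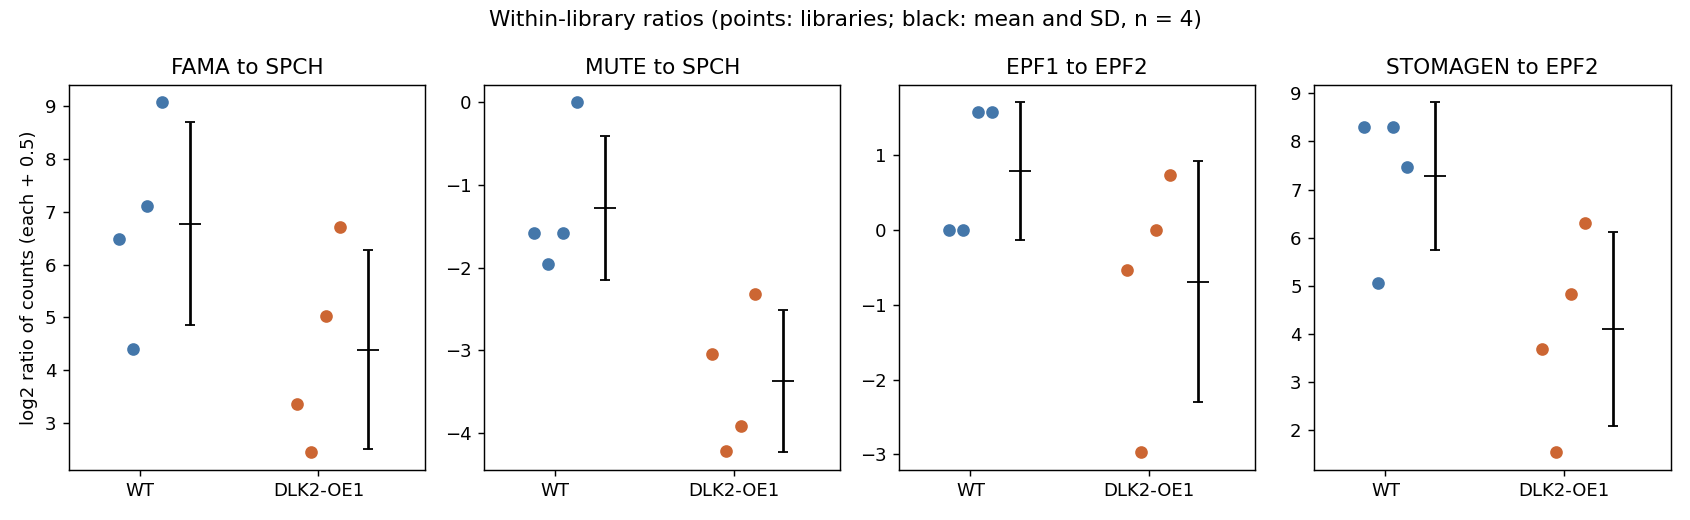
Log2 ratio of counts, each plus 0.5, of 2 members within a library (vertical axes, a separate scale per panel), with a point per library (blue WT, orange DLK2-OE1) and the mean with its SD in black (n = 4). The mean STOMAGEN to EPF2 ratio is 7.28 in WT and 4.1 in DLK2-OE1, with overlapping points.

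The genes most like TMM and STOMAGEN across libraries were taken by Pearson's r of log2 CPM over the 8 libraries, in which each value carries the difference between the genotypes and the library it came from. For TMM these were AT5G45670 (r = 0.996), CXE18 (r = 0.989) and AT2G33850 (r = 0.988), with 226 genes above r = 0.9. For STOMAGEN they were AT2G38330 (r = 0.994), AT1G48450 (r = 0.99) and AT1G18485 (r = 0.99), with 630 genes above r = 0.9. SPCH and EPF2 were not tested and have no such list.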

How the data were processed

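Per the labels' protocols, libraries were made with a NEBNext Ultra kit from RNA caught on oligo(dT) beads, for Illumina NovaSeq sequencing. The tools in the submitters' processing notes, given without role or order, are RSEM, StringTie 1.3.1, edgeR, HISAT2, Bowtie2 2.2.8, DESeq2 and fastp 0.18.0, and the build is TAIR10. The deposited tables hold, per the file headers, a count and an FPKM value per gene and library, over 27634 rows. The sources used here do not give the strand setting, nor whether these counts are whole reads or rounded estimates.

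The counts were tested in R 4.3.3 with edgeR 4.0.16 (filterByExpr, TMM, robust quasi-likelihood fit, Benjamini-Hochberg adjustment over 18155 genes, threshold 0.05; common biological coefficient of variation 0.222). Each SE was taken as the absolute log2 fold change over the root of F. Within-library ratios were tested in SciPy 1.17.1. Alternatives were a replicate block, scaling by DESeq2 size factors, no filter, a minimum of 10 counts in 4 libraries, DESeq2 1.42.0, limma-voom and limma-trend (limma 3.58.1) on log2 FPKM with pseudocounts of 1 and 0.1, the omission of each library and of DLK2-OE1 replicates 1 and 2 together. Leaving out WT replicate 2 as well was added after seeing the data. Tested on simulated counts with 200 of 18155 genes changed, edgeR recovered 53% of 2-fold and 90% of 4-fold changes among genes above 1 CPM, with 11 false calls among 154. The simulated libraries varied independently gene by gene, without differences between libraries shared by many genes, and no gene below 1 CPM was changed. These rates therefore do not give the power in the real libraries or for the members that were not tested.

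Libraries of a genotype differed by more than sampling noise (chi-square between 11.4 and 108 per degree of freedom), so each counted once. Sequences and coordinates are from RefSeq TAIR10.1, read by locus and not by coordinates from the deposited tables. The members, the 8 further lists (74 genes) and the tests were chosen with earlier results of these data known. The genes named are all members, DLK2, up to 5 tested genes with the smallest p per list, list genes at 0 counts in all libraries, and the 3 genes most like SPCH (or EPF2 in its place), TMM and STOMAGEN. Any other gene of the lists was named after its values were seen.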

Additional observations from a re-analysis of the deposited data

Results flagged for a closer look

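In WT, replicate 2 was set apart from the other 3 libraries by Dixon's test for 5 of the 10 genes: SPCH at 0.639 CPM, MUTE at 0.147 CPM, EPF2 at 0.246 CPM, SDD1 at 0.786 CPM and BASL at 0.393 CPM. In each, the gap to the nearest library was larger, as a share of the range of the 4 WT libraries, than Dixon's 95% critical value. For MUTE and EPF2 the other WT libraries had 0 counts, so any count in replicate 2 would have been picked out and the test says nothing there. The 3 counts of MUTE are no more than a count of 0 allows in another library. The values rest on 3 to 16 counts. Of 28 groups of 4 libraries checked in this way these 5 were picked out, MUTE and EPF2 by their 0 counts alone. The rate of about 1 in 20 by chance assumes normally spread values. It cannot be set against these 5, which rest on low counts, share a library and are not independent. The part of WT replicate 2 in the comparison is seen in the TMM log2 fold change, which was 2.13 with it and 3.44 without it.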

How the results depend on the processing

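Of all genes, edgeR called 670 on all libraries, 245 with the replicate block, 60 without DLK2-OE1 replicates 1 and 2 together, 1 with WT replicate 2 left out as well, and 0 to 2191 when each library was left out in turn. DESeq2 called 2823, limma-voom 265 and limma-trend on log2 FPKM 288 (pseudocount 1), 355 (pseudocount 0.1) and 291 (0.1, no filter). Members called were 0 under each setting other than DESeq2, which called 1, TMM, and 0 in each omission of a library. With DESeq2, calls were 2 of the receptor and MAP kinase genes (0 in the report), 4 of the lineage partners (1), 3 of the EPF-like genes (0), 1 of the guard cell genes (0), 3 of the epidermis genes (0) and 10 of the dividing cell genes (4). The lineage partners had 0 calls with the replicate block, limma-voom, the 3 limma-trend fits and both sets of libraries left out together. Dividing cell genes had 1 call with the block, 0 with limma-voom, 0, 2 and 1 with limma-trend in the order above, and 0 with either set left out together. Epidermis genes had 1 with each limma-trend fit. Shoot apex genes had 2 calls in the report, 0 with limma-voom, 1 with limma-trend at pseudocount 1 and 0 with either set left out together. Leaving out each library in turn gave 0 to 1 calls for receptors and MAP kinases, 0 to 3 for lineage partners, 0 to 1 for EPF-like genes, 0 to 2 for guard cell genes, 0 to 1 for epidermis genes, 0 for mesophyll genes, 0 to 10 for dividing cell genes and 0 to 2 for shoot apex genes. For the lists with 0 calls in the report, those calls came on omitting DLK2-OE1 replicate 4, and for receptors and MAP kinases also on omitting replicate 3. The 0 and 2191 of all genes came on omitting WT replicate 3 and DLK2-OE1 replicate 4. With each library left out, the FAMA log2 fold change ran from -0.05 to 0.21 and that of SCRM2 from -0.18 to 0.04. The sign of FAMA turned when WT replicate 1 (-0.05) or DLK2-OE1 replicate 4 (-0.01) was omitted. That of SCRM2 turned with limma-trend (0.08, 0.09 and 0.09), without WT replicate 2 (0.04), without DLK2-OE1 replicates 1 and 2 together (0.02) and without these and WT replicate 2 (0.14), with no call in any of them. The FPKM scale moves the median of all genes to between 0.121 and 0.15. The ratio differences kept their sign, from -3.17 to -1.61 (FAMA to SPCH), -2.44 to -1.66 (MUTE to SPCH), -1.96 to -0.72 (EPF1 to EPF2) and -3.92 to -2.33 (STOMAGEN to EPF2) with each library left out, and at -0.90, -1.84, -0.42 and -1.70 in that order without DLK2-OE1 replicates 1 and 2 together. The cause of these shifts was not tested.

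Replicate numbers pair no libraries by the labels, and the deviations of same-numbered libraries correlated at -0.029, 0.062, 0.123 and -0.095, so the block is only an alternative. With the block the TMM adjusted p was 0.0786 and the STOMAGEN one 0.31. Depth limits SPCH, MUTE, EPF1, EPF2, SDD1 and BASL, at 3 to 21 counts over all WT libraries.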
